A study of Mus musculus with 6 samples.

Results

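Beta-only T cells, splenic T cells in which a productive T cell receptor beta chain was read without a passing alpha chain, numbered 1755 of 7836 barcodes called only as T cells. They were chosen from the T cell V(D)J tables of 1 heterozygous 564Igi mouse and 1 WT mouse. T cells were taken as barcodes with a cell call in the T cell table of a mouse and none in its B cell table. A chain passed if its contig was flagged as high-confidence, was productive and had at least 2 unique molecular identifiers (UMIs, tags that mark single captured molecules). Beta-only cells had at least 1 passing beta chain (TRB) and no passing alpha chain (TRA), and paired cells had both. The 564Igi mouse held 1004 beta-only and 3162 paired cells, and the WT mouse held 751 and 2217. The label describes which chains were read, and the tables cannot show whether a cell lacked alpha protein.

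The 564Igi mouse was heterozygous for the Igktm1(Igk564)Tik and Ightm1(Igh564)Tik alleles, from a B6.129S4(Cg) line, in which rearranged heavy and kappa chain genes of a self-reactive antibody are knocked into the Igh and Igk loci. The WT mouse is C57BL/6JRj. The knock-in concerns B cell receptor genes, and the labels name no change to a T cell receptor locus. Splenocytes of both had Ter-119-positive (erythroid) cells removed on magnetic beads, then went through droplet capture with a 5′ kit. The gene expression libraries are not analysed here, and a cell's type rests on its receptor contigs alone. Ages are not given in the labels used here. With 1 mouse per genotype, no value was set against the spread between animals and no p-value was computed. Intervals are exact (Clopper-Pearson) 95% binomial intervals for shares and of Newcombe's kind for differences, and they describe counting error alone.

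The beta chain is rearranged first in the thymus, where it is tested on the cell surface with an invariant partner before the alpha locus opens. The alpha locus then joins a V segment directly to one of many J segments, often on both chromosomes, and can repeat the joining with V and J segments farther apart. The delta locus lies inside the alpha locus, so that its V segments can also join an alpha J segment. A mature alpha-beta T cell needs both chains to show its receptor on the surface. In the GRCm38 assembly, the constant genes lie at chr6:41538219-41539665 (Trbc1) and chr14:54220521-54224198 (Trac).

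The T cell tables held 114433 UMIs from 32922893 reads in 564Igi and 86409 UMIs from 30190690 reads in WT. Barcodes called in both tables of a mouse, 373 in 564Igi and 345 in WT, were left out. The mice shared 23 barcodes called only as T cells, of which 1 was beta-only in both, and no shared barcode carried the same beta CDR3.

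The CDR3 sequences that link beta-only cells to an alpha chain come first, because they show which alpha chain a cell with no passing one may still have been read with. CDR3 is the stretch formed at the join. The lines give CDR3 nucleotides in the sense of the transcript, from 5′ to 3′. Capitals mark the bases that match neither the commonest start of CDR3s with the same V gene nor the commonest end of those with the same J gene.
WT beta chain TRBV15 with TRBJ2-7: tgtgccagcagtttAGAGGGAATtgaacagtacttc
564Igi beta chain TRBV5 with TRBJ2-7: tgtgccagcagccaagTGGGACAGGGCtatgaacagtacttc
564Igi alpha chain TRAV12D-3 with TRAJ32 of its paired cells: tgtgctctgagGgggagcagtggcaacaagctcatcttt
564Igi beta chain TRBV15 with TRBJ2-7: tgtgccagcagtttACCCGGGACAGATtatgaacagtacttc
564Igi alpha chain TRAV16N with TRAJ6 of the same cells: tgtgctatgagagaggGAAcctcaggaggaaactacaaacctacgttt
WT beta chain TRBV5 with TRBJ1-1: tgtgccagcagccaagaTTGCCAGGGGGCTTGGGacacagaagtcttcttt
WT alpha chain TRAV11 with TRAJ18: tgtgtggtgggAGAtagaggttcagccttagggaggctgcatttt
564Igi beta chain TRBV26 with TRBJ1-4: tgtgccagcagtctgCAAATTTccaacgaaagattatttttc
564Igi alpha chain TRAV7-4 with TRAJ50: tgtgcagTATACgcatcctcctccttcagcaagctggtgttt

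The first sequence was the largest group of beta-only cells with 1 beta chain, 5 WT cells with no paired cell. Their beta UMIs were 7, 5, 5, 5 and 2. A TRAV13D-3 to TRAJ45 contig of 1 UMI, full in V, J and C but with no CDR3 or productivity call, was present in 3 of the 5 cells. Another cell had a TRAV14-3 contig of 1 UMI with no J, and the cell with 7 beta UMIs had no TRA contig. TRAV13D-3 was the primary alpha V gene in 0.0451% of WT paired cells. That share, like those given below for V genes of other groups, counts passing alphas. How often these V genes occur among contigs that do not pass was not computed.

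The second sequence was carried by 4 beta-only and 4 paired 564Igi cells. The 4 beta-only cells had 16, 11, 5 and 5 beta UMIs, and the 4 paired cells 18, 16, 16 and 2. All 4 paired cells held the TRAV12D-3 to TRAJ32 alpha chain, at 3, 5, 2 and 3 UMIs. In 2 beta-only cells a TRAV12D-3 to TRAJ37 contig had 4 UMIs, a C gene and no productivity call, and another held TRAV12D-3 with no J. Thus the same V gene recurred in both kinds of cell, with another J. TRAV12D-3 was the primary alpha V gene in 3.54% of 564Igi paired cells.

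In the beta-only 564Igi cells with TRBV15 and TRBJ2-7, at 14 and 11 beta UMIs, an identical productive TRAV16N to TRAJ6 chain was read at 1 UMI in each. Other 564Igi pairs also shared an unpassed alpha contig. The TRBV5 to TRBJ1-1 cells, with 22 and 15 beta UMIs, held TRAV6N-5 without a J at 10 and 6 UMIs, a V gene of 0.316% of paired cells. The TRBV12-1 to TRBJ2-4 cells, with 12 and 8 beta UMIs, held TRAV12-3 to TRAJ2 with no productivity call at 10 and 4 UMIs, and a TRAV9D-2 contig with no J at 2 and 1 UMIs. TRAV12-3 was primary in 1.27% of paired cells.

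Of the 10 groups named by rule, up to 5 per mouse by number of beta-only cells, 5 had an alpha V gene in at least 2 beta-only cells, 4 in 564Igi and 1 in WT. The 2 cells of the 564Igi TRBV31 to TRBJ1-4 group and of the WT TRBV29 to TRBJ2-3 group held no TRA contig. In the WT TRBV1 to TRBJ2-3 and TRBV12-2 or TRBV13-2 to TRBJ1-2 groups, 1 cell of 2 did. The WT TRBV15 to TRBJ2-5 cells, with 34 and 24 beta UMIs, held different alpha V genes, a TRAV7-2 contig of 7 UMIs in the first and a TRAV6-6 contig of 2 UMIs in the second. Neither contig had a productivity call, and the first cell also held a productive TRAV6-5 to TRAJ30 alpha of 1 UMI. The recurrence was noticed after its values were seen.

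A beta chain was shared with a paired cell of the same mouse by 12 beta-only cells in 564Igi and 12 in WT. The 564Igi cells include the 4 of the TRBV5 to TRBJ2-7 group above, which held no productive alpha, so they are not all independent. A productive alpha of 1 UMI was read in 3 of the 12 in 564Igi and 5 of the 12 in WT, and it was the paired cell's alpha chain in 2 and 5 of these. The WT TRBV5 to TRBJ1-1 cell, of 4 beta UMIs, held the TRAV11 to TRAJ18 chain of its paired cell, the join known from invariant NKT cells. The 564Igi TRBV26 to TRBJ1-4 cell, of 16 beta UMIs, shared its TRAV7-4 to TRAJ50 chain with a paired cell. The one single-UMI alpha that did not match joined TRAV6-6 to TRAJ52, in a 564Igi TRBV10 cell.

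Most beta-only cells had some alpha contig. A TRA contig of any kind was present in 70.7% (67.8 to 73.5) of 564Igi and 69.5% (66.1 to 72.8) of WT beta-only cells. Paired cells held a TRA contig beyond the passing ones in 43.0% (564Igi) and 43.5% (WT). Barcodes called only as B cells, which should lack rearranged TRA transcripts, were taken for comparison. A TRA contig was present in 0.836% of 3827 such barcodes in 564Igi and 0.706% of 6513 in WT. Their median depth was 53 UMIs in 564Igi and 70 in WT in the B cell table, where beta-only cells had 15 and 16 in the T cell table. T cell barcodes with neither passing chain held one in 31.4% of 226 in 564Igi and 27.7% of 166 in WT. Beta-only cells stood above both of these sets in this share. The B cell set left out barcodes with a cell call in the T cell table, which can lower its share. Its depth was also counted in another library than that of the beta-only cells. Whether free RNA gave alpha contigs of beta-only cells was not tested.

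**Figure D1:**
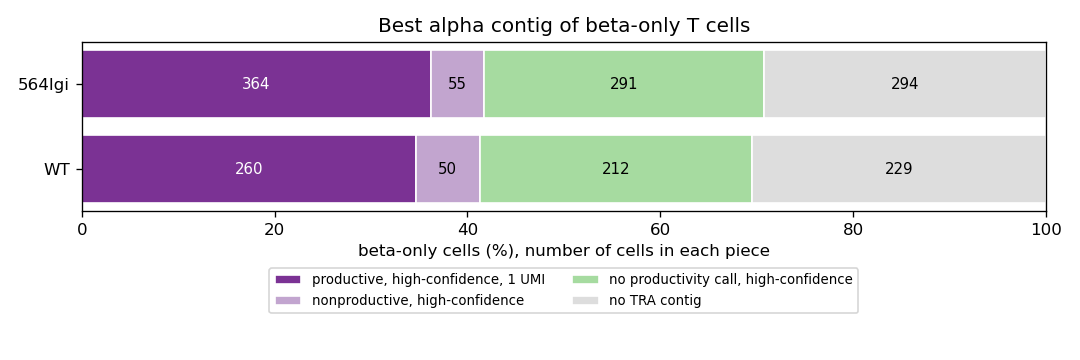
Share of beta-only cells by their best alpha contig, in 564Igi (above) and WT (below), with the number of cells written in each piece. Cells with a productive contig of 1 UMI (364 and 260), with no productivity call (291 and 212) and with no TRA contig (294 and 229) make up most of both bars, and nonproductive contigs are 55 and 50 cells.

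By their best contig, beta-only cells fell into the same 4 classes in both mice. A productive, high-confidence alpha with exactly 1 UMI, just under the limit, was present in 364 564Igi cells, 36.3% (33.3 to 39.3), and in 260 WT cells, 34.6% (31.2 to 38.1). For paired cells just over the limit, the primary alpha had 2 UMIs in 544 of 564Igi and 386 of WT, 17.2% and 17.4% of paired cells. Beyond their passing contigs, paired cells held a productive TRA contig in 9.01% of 564Igi cells (285) and 8.89% of WT cells (197), at a median of 1 UMI. None of these carried the high-confidence flag. A nonproductive alpha was the best contig of 55 564Igi cells (5.48%) and 50 WT cells (6.66%). A high-confidence contig without a productivity call was best in 291 564Igi cells (29.0%) and 212 WT cells (28.2%). No TRA contig was found in 294 564Igi cells, 29.3% (26.5 to 32.2), and in 229 WT cells, 30.5% (27.2 to 33.9).

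Alpha contigs of beta-only cells were not all of 1 UMI. The largest TRA contig had 2 to 4 UMIs in 234 564Igi and 147 WT cells, and at least 5 UMIs in 33 and 26, up to 12 in 564Igi and 11 in WT. None of these contigs was called productive, which the rule fixes for those with the high-confidence flag. Contig structure was counted only among high-confidence TRA contigs with no productivity call. In 564Igi 34.9% of beta-only and 14.1% of paired cells held such contigs, and in WT 34.5% and 12.4%. In 564Igi, those with V, J and C, full length with no CDR3, were present in 180 beta-only cells, 17.9%, against 10.9% of paired cells. In WT they were present in 134 beta-only cells, 17.8%, against 9.43% of paired cells. Those with a V gene and no J occurred in 8.67% of beta-only and 0.980% of paired cells in 564Igi. In WT they occurred in 8.79% of beta-only and 0.992% of paired cells. Contigs without the high-confidence flag were not counted in these shares, and the shares without that requirement were not computed. The flag was on all productive alpha contigs of beta-only cells and on none of those that paired cells held beyond the passing ones. What part it had in these differences was not tested. High-confidence nonproductive alphas occurred in 6.87% of beta-only and 2.12% of paired 564Igi cells, a difference of 4.75 points (3.16 to 6.56), and in 6.92% and 2.03% in WT, a difference of 4.89 points (3.06 to 7.02). Of these contigs in beta-only cells, 28 of 69 in 564Igi and 21 of 52 in WT had a stop codon in the CDR3. With the high-confidence flag not required, the differences in nonproductive alphas were smaller. They then occurred in 7.67% of beta-only and 5.85% of paired 564Igi cells, a difference of 1.82 points (0.0212 to 3.81). In WT they occurred in 8.12% and 6.59%, a difference of 1.54 points with an interval (-0.625 to 3.94) that included 0.

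A contig that joined TRAJ50 or another alpha J gene to Trbc1 with no V gene was found at similar shares in both kinds of cell. It occurred in 16.6% of beta-only and 15.8% of paired 564Igi cells, a difference of 0.789 points (-1.82 to 3.54). In WT it occurred in 16.4% of beta-only and 17.4% of paired cells, a difference of -0.988 points (-4.04 to 2.25). The name does not set Trbc1 apart from Trbc2, since TRBC1 was also named for the primary beta of 1004 of 1004 564Igi and 749 of 751 WT beta-only cells, those with TRBJ2 genes included. TRAJ50 accounted for 175 of 185 such contigs in 564Igi beta-only cells and 135 of 138 in WT. In GRCm38 Traj50 lies at chr14:54167590-54167652.

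A further source of alpha sequence was a delta V gene joined to an alpha J gene and Trac. These contigs carry the chain label Multi in the deposited tables, so they could not count as alpha under the rule, and they were noticed after the data were seen. A cell whose only alpha-type chain was such a contig was thus beta-only by construction. A paired cell could hold one only beside a passing alpha, so a higher share in beta-only cells follows in part from the rule. Productive ones were present in 20 564Igi beta-only cells, 1.99% (1.22 to 3.06), against 7 paired cells, 0.221% (0.0891 to 0.456), a difference of 1.77 points (0.965 to 2.85). In WT they were present in 17 beta-only cells, 2.26% (1.32 to 3.60), against 7 paired cells, 0.316% (0.127 to 0.649), a difference of 1.95 points (0.951 to 3.30). Of the productive contigs, 16 in 564Igi and 15 in WT had at least 2 UMIs. None of the barcodes called only as B cells held one, which allows up to 0.0784% in 564Igi and 0.0461% in WT, at 3 counts. In 564Igi an identical TRDV1 to TRAJ43 CDR3 was read at 11 and 2 UMIs in TRBV5 to TRBJ2-3 cells of 6 and 5 beta UMIs. A group of 2 beta-only cells with 1 beta chain had these genes and beta UMIs, so the 20 cells may not all be independent.

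The CDR3s of the 3 such contigs with most UMIs in each mouse are shown because they are the alpha-type chains that the rule passed over; capitals have the same meaning as above.
564Igi TRDV1 with TRAJ37: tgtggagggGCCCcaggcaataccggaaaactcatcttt
564Igi TRDV1 with TRAJ43: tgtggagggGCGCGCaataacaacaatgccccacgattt
564Igi TRDV2-2 with TRAJ37: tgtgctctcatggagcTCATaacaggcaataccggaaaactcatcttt
WT TRDV1 with TRAJ57: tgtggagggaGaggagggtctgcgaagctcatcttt
WT TRDV1 with TRAJ56: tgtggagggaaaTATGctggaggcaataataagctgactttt
WT TRDV2-2 with TRAJ58: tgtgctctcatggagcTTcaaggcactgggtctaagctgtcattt

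TRDV1 was the V gene of 13 of the 20 productive contigs in 564Igi and 14 of the 17 in WT, and TRDV2-2 of 6 and 3. Their TRAJ genes ran from TRAJ30 to TRAJ58 in 564Igi and TRAJ23 to TRAJ58 in WT. TRAJ40 or higher was used by 14 of the 20 in 564Igi and 13 of the 17 in WT, against 27.3% of 564Igi and 26.8% of WT primary alpha chains in paired cells. The high-numbered J genes lie nearest the delta genes. In GRCm38 Trdv1 lies at chr14:53881612-53882217, Trdc at chr14:54142851-54146108, Traj58 at chr14:54157280-54157342 and Traj18 at chr14:54200777-54200842. The largest UMI counts were 14 in both mice, in a 564Igi TRDV1 to TRAJ37 contig and in a WT TRDV1 to TRAJ57 contig. The 564Igi cell had 14 beta UMIs, with TRBV16, and the WT cell 33, with TRBV1. Gamma chain contigs were found in 0 beta-only cells of either T cell table, up to 0.299% in 564Igi and 0.399% in WT allowing 3 cells, as were delta chain contigs by label. Which receptor loci the library primers enriched is not given in the labels, so gamma and delta transcripts may not have been captured.

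Genes of the single-UMI alpha contigs were compared with primary alphas of paired cells. The share of TRAV genes whose difference interval excluded 0 was 13.3% in 564Igi, 8 of 60, and 8% in WT, 4 of 50, and for TRAJ genes 7.32% (3 of 41) and 7.5% (3 of 40). TRAV16N and TRAV16 were among the most frequent in both mice. TRAV16N made up 26 of 364 single-UMI alphas in 564Igi, 7.14%, against 2.12% of paired alphas, and 10 of 260 in WT, 3.85%, against 3.11%. TRAV16 made up 4.67% against 1.39% in 564Igi and 5.00% against 1.58% in WT, and both intervals excluded 0. TRAV6-6 made up 7.42% against 3.29% in 564Igi, with an interval that excluded 0, and 5.77% against 3.34% in WT, with one that included 0. Trav16 lies at chr14:53743174-53743705, Trav16n at chr14:53351090-53351621 and Trav6-6 at chr14:53516929-53517366. Copies in the alpha V region are close to each other in sequence, so these gene names are uncertain.

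TRAV16 and TRAV16N were also read at low UMI counts in paired cells. Primary alphas with TRAV16 stood at 2 UMIs in 40.9% of 564Igi and 45.7% of WT paired cells that used the gene, and those with TRAV16N in 28.4% and 36.2%, against 17.2% and 17.4% of all paired cells. Over genes, Spearman's rho between this share and the difference in use was 0.33 in 564Igi (60 genes) and 0.43 in WT (50 genes). It is a description, since the genes come from the same library and are no replicates. Both measures also come from the alpha UMI counts that the rule uses. A gene read at low counts therefore tends to stand high on both by construction. Grouping the TRAV16 copies, a choice made after seeing these values, gave 51 of 364 single-UMI alphas in 564Igi, 14.01%, against 4.74% of paired alphas, and 31 of 260 in WT, 11.9%, against 5.46%. TRAV4-4-DV10 (3.30% against 2.12%) and TRAV7-5 (3.30% against 1.96%) completed the 5 most frequent genes in 564Igi, and TRAV12D-3 (4.23% against 2.44%) and TRAV6-5 (3.46% against 1.40%) those in WT. Of these only the TRAV6-5 interval excluded 0. Not all frequent genes were read at low counts in paired cells. Paired alphas stood at 2 UMIs in 17.9% for TRAV4-4-DV10 and 11.3% for TRAV7-5 in 564Igi. In WT the values were 14.8% for TRAV12D-3 and 22.6% for TRAV6-5. For TRAV6-6 they were 26.9% in 564Igi and 27.0% in WT.

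Other V genes past that interval went both ways. TRAV6-7-DV9 was lower among single-UMI alphas in both mice, at 2.47% against 5.12% of paired alphas in 564Igi, a difference of -2.65 points (-4.22 to -0.358), and 2.31% against 5.23% in WT, a difference of -2.92 points (-4.70 to -0.132). Its paired alphas stood at 2 UMIs in 10.5% of 564Igi and 6.90% of WT cells. In 564Igi TRAV7-2 was also lower, at 0.549% against 2.53%. TRAV7D-3 and TRAV8N-2 were found there in 0 of 364 single-UMI alphas, with an exact upper limit of 1.01%, against 1.08% and 1.14% of paired alphas. TRAV6-1 was higher in 564Igi, at 1.65% against 0.443%, and TRAV16D-DV11 in WT, at 3.08% against 0.767%.

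**Figure D2:**
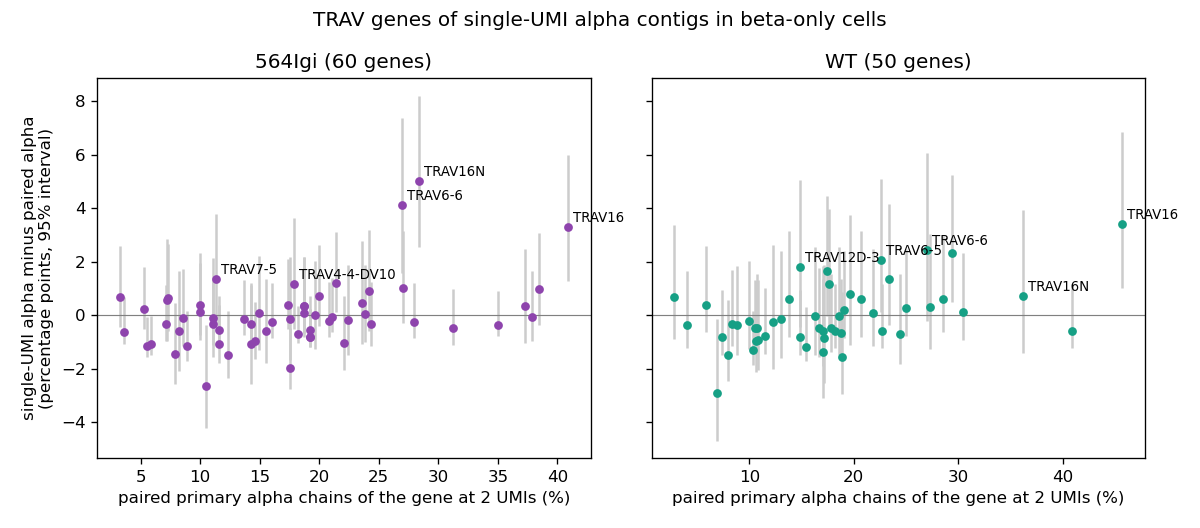
For each TRAV gene, the share of its paired primary alphas at 2 UMIs (x axis, percent) against its share among single-UMI alphas of beta-only cells minus its share among paired primary alphas (y axis, percentage points, with 95% Newcombe intervals), for 564Igi on the left and WT on the right. TRAV16 lies at the right in both panels, at 40.9% in 564Igi and 45.7% in WT, and TRAV16N is highest in 564Igi, at 5.02 points.

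Among the most frequent J genes, TRAJ32 stood out in both mice. It was used by 5.49% of 564Igi single-UMI alphas against 2.34% of paired alphas, and by 5.00% against 2.26% in WT, with intervals of the difference that excluded 0. Traj32 lies at chr14:54186101-54186166. TRAJ42 was used by 5.38% against 2.44% in WT, also with an interval that excluded 0. Outside the 5 most frequent, TRAJ50 (3.57% against 1.58%) and TRAJ53 (3.85% against 1.39%) were higher in 564Igi. TRAJ16 was found in 0 of 260 single-UMI alphas in WT, with an exact upper limit of 1.41%, against 1.49% of paired alphas. The intervals of the differences for TRAJ50, TRAJ53 and TRAJ16 excluded 0. The others of the 5 most frequent, TRAJ31, TRAJ18, TRAJ22 and TRAJ23 in 564Igi and TRAJ23, TRAJ12 and TRAJ26 in WT, had intervals that included 0.

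Lists of alpha chains with known roles were near the paired values. The invariant NKT alpha (TRAV11 or TRAV11D with TRAJ18), of lipid-recognising T cells, made up 1.92% of single-UMI alphas in 564Igi against 1.77% of paired alphas, and 2.31% against 1.31% in WT. The MAIT alpha (TRAV1 with TRAJ33) was found once among single-UMI alphas in each mouse, against 1 and 0 paired cells in 564Igi and WT. TRAV genes shared with the delta locus made up 13.2% against 12.1% in 564Igi and 9.23% against 10.9% in WT. All these intervals of the difference included 0. The single-UMI alpha was the passing alpha of another T cell of the same mouse in 5.49% of 564Igi and 5.38% of WT cases, against 5.09% and 4.56% of paired primary alphas. In the other mouse it was found in 3.30% and 4.23%, against 3.38% and 3.34% of paired primary alphas.

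Beta-only cells had fewer beta UMIs than paired cells in both mice. The median primary beta had 9 UMIs (quartiles 5 to 13) in 564Igi beta-only cells and 11 (7 to 16) in paired cells. In WT it had 9 (6 to 14) in beta-only cells and 11 (7 to 17) in paired cells. Under 5 UMIs were 17.03% of beta-only and 11.2% of paired 564Igi cells, a difference of 5.87 points (3.32 to 8.56), and 16.6% and 9.38% in WT, a difference of 7.26 points (4.36 to 10.4). At 20 or more UMIs were 8.86% and 15.2% in 564Igi, and 9.59% and 16.1% in WT. Reads per beta UMI were close, at medians of 234 and 237 in 564Igi and 265 and 269 in WT. Paired cells held a median of 4 alpha UMIs (quartiles 3 to 7) in each mouse, far below their beta UMIs.

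**Figure D3:**
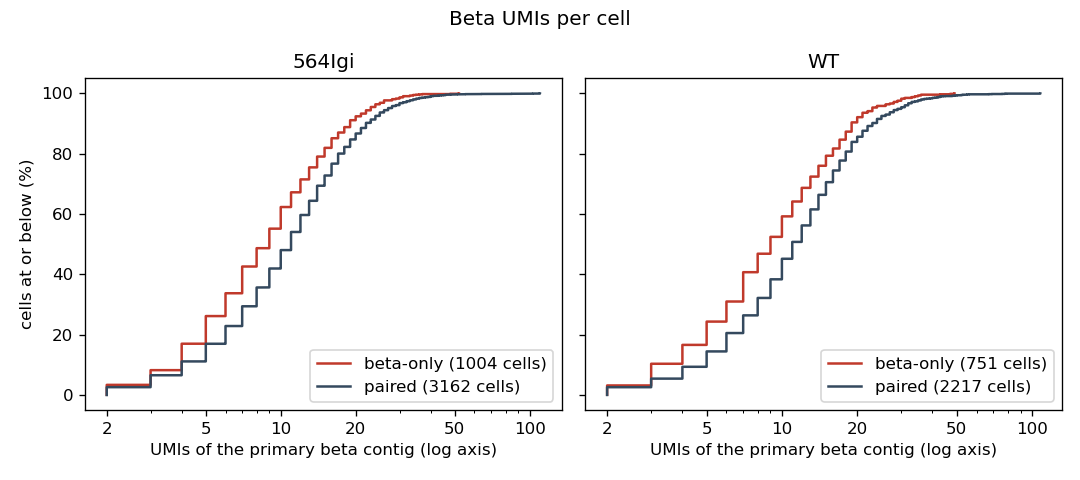
Cumulative share of cells (y axis, percent) by UMIs of the primary beta contig (x axis, log scale) for beta-only and paired cells of 564Igi (left) and WT (right). The beta-only curve lies left of the paired one in both mice, with medians of 9 against 11 UMIs.

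The share of beta-carrying cells that were beta-only was 24.1% (22.8 to 25.4) of 4166 cells in 564Igi and 25.3% (23.7 to 26.9) of 2968 in WT. The difference of -1.20 points had an interval (-3.26 to 0.843) that included 0, and it was 0.407 points (-1.82 to 2.63) without barcodes that held an immunoglobulin contig of at least 2 UMIs. Alpha-only cells were rarer, 5.41% of 3343 alpha-carrying cells in 564Igi and 5.50% of 2346 in WT. By beta UMIs the share was 15.6% in 564Igi and 16.8% in WT at 20 or more UMIs. It was 21.1% in 564Igi and 22.0% in WT at 10 to 19 UMIs, and 28.2% and 29.5% at 5 to 9. At 2, 3 and 4 UMIs it was 29.1%, 28.2% and 37.8% in 564Igi and 29.3%, 46.2% and 35.1% in WT, on 82 to 233 cells each. Even at 20 or more beta UMIs, 89 of 571 cells in 564Igi and 72 of 428 in WT had no passing alpha, and the share with any TRA contig in those cells was 69.7% and 80.6%. Thinned to 10 receptor UMIs, the share was 30.9% in 564Igi and 33.2% in WT, against 15.1% and 16.6% unthinned in the same cells, and 529 of 1004 and 376 of 751 beta-only cells were left out as too shallow. Thinned to 5 it was 63.0% and 64.6%, against 21.5% and 22.5% unthinned. Thinning takes UMIs from the same alpha counts that the rule uses, so a higher share after it follows from the construction.

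**Figure D4:**
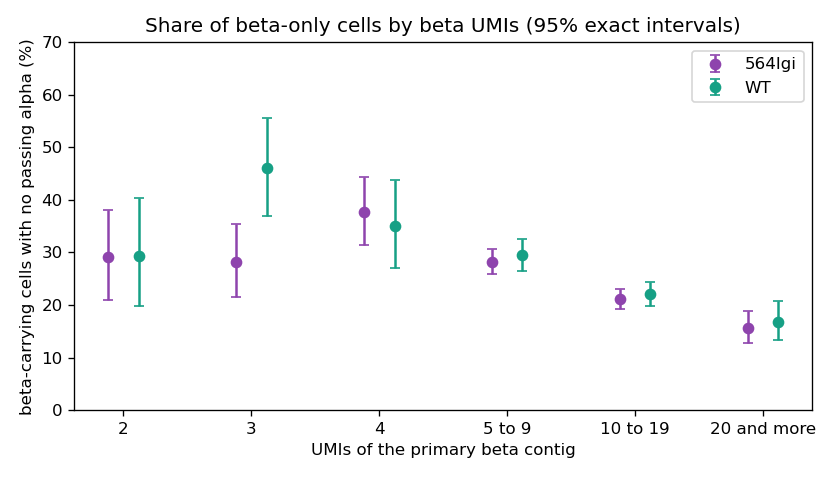
Share of beta-carrying cells with no passing alpha (y axis, percent, with exact 95% intervals) by UMIs of the primary beta contig (x axis), with 564Igi left of WT in each bin. In both mice the share is lowest at 20 or more UMIs, 15.6% and 16.8%.

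A second passing beta was found less often in beta-only cells, in 4.08% of 564Igi beta-only against 7.81% of paired cells, a difference of -3.73 points (-5.24 to -2.04). In WT it was 3.60% against 5.23%, with an interval (-3.22 to 0.187) that included 0. Its relation to depth and to droplets with more than 1 cell was not tested. Immunoglobulin contigs in the B cell table, the marker list for B cells, were present in 42.2% of beta-only and 49.4% of paired 564Igi cells, a difference of -7.17 points (-10.7 to -3.58). In WT they were present in 13.8% and 14.7%, a difference of -0.901 points (-3.75 to 2.15). At 2 UMIs or more they were present in 18.1% and 25.2% in 564Igi, and in 3.20% and 3.65% in WT. Heavy chain contigs accounted for most in 564Igi, at 36.9% of beta-only and 44.4% of paired cells, against 6.39% and 7.22% in WT, while kappa contigs were present in 7.47% and 8.98% in 564Igi and 7.59% and 8.12% in WT. Without barcodes that held such a contig at 2 UMIs or more, 25.8% of beta-carrying 564Igi cells had no passing alpha, against 24.1% with them.

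Beta genes of beta-only cells were close to those of paired cells. The share of TRBV genes whose interval of the difference excluded 0 was 0% in 564Igi (0 of 22) and 14.3% in WT (3 of 21), and 0% of 12 TRBJ genes in 564Igi and 0% of 12 in WT. In WT, TRBV14 was used by 28 beta-only cells, 3.73%, against 1.89% of paired cells, a difference of 1.83 points (0.433 to 3.53). In 564Igi it was used by 3.19% against 2.72%, a difference of 0.467 points (-0.711 to 1.86). TRBV23 was used by 12 WT beta-only cells, 1.60%, against 0.496%, and in 564Igi by 0.498% against 0.474%. TRBV13-3 was used by 33 WT beta-only cells, 4.39%, against 6.45%, and in 564Igi by 6.18% against 6.10%. In GRCm38 these genes lie at chr6:41135167-41135616 (Trbv14), chr6:41216073-41216526 (Trbv23) and chr6:41130147-41130585 (Trbv13-3). The TRBV13-3 interval in WT (-3.80 to -0.0714) included 0 with a UMI minimum of 1 (-3.81 to 0.435) or 5 (-2.73 to 1.22), with barcodes called in both tables kept (-2.95 to 0.767), with exactly 1 beta, without Ig contigs and with distinct chains. At 5 UMIs the WT intervals of TRBV14 (-1.28 to 1.36) and TRBV23 (-0.232 to 1.17) also included 0. The differences of these genes in 564Igi minus those in WT had intervals that included 0, from -3.43 to 0.608 points for TRBV14, -2.36 to 0.0282 for TRBV23 and -0.464 to 4.68 for TRBV13-3. The sign of the difference was the same in both mice for 12 of 21 TRBV and 9 of 12 TRBJ genes.

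**Figure D5:**
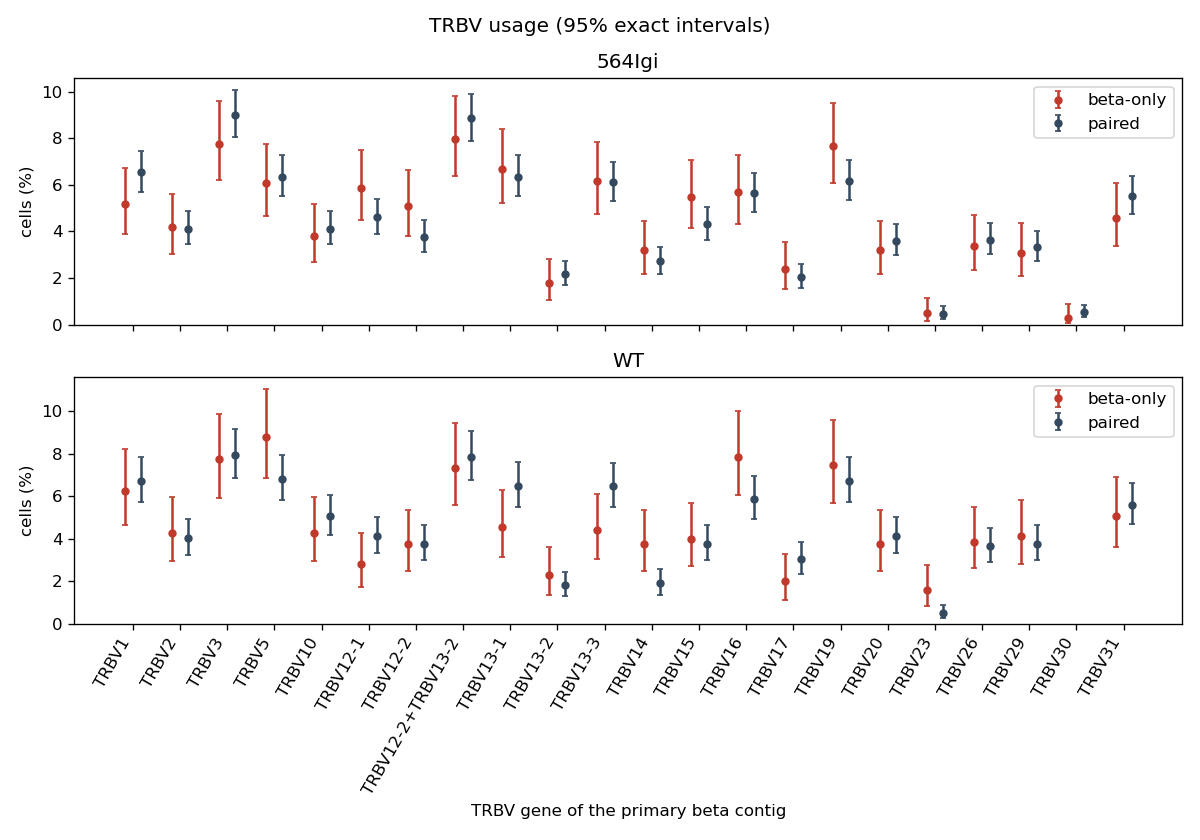
Share of cells (y axis, percent, with exact 95% intervals) using each TRBV gene in beta-only and paired cells, for 564Igi (above) and WT (below), without genes under 20 cells in that mouse. TRBV14 and TRBV23 are higher and TRBV13-3 lower in beta-only cells of WT, by 1.83, 1.10 and -2.06 points.

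Lists of TRBV genes with known roles did not separate the 2 kinds of cell. TRBV16, TRBV26, TRBV12-1 and TRBV12-2, known to react with superantigens of endogenous retroviruses, together made up 20.02% of beta-only and 17.6% of paired cells in 564Igi, and 18.2% and 17.4% in WT. Genes common in invariant NKT cells (TRBV13-2, TRBV29 and TRBV1) made up 10.1% and 12.05% in 564Igi, and 12.6% and 12.3% in WT. Genes common in MAIT cells (TRBV19, TRBV13-2 and TRBV13-3) made up 15.6% and 14.5% in 564Igi, and 14.1% and 14.98% in WT. TRBJ2 genes, next to the second beta constant gene, made up 64.2% and 64.5% in 564Igi, and 64.2% and 65.4% in WT. Every interval of these differences included 0. Many chains were named for both TRBV12-2 and TRBV13-2 and are not in these sums. With them, the NKT-type genes made up 18.03% of beta-only and 20.9% of paired cells in 564Igi, a difference of -2.88 points (-5.63 to 0.00919), and 19.97% and 20.1% in WT.

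The beta CDR3 had a median length of 14 amino acids in both kinds of cell and both mice. At 15 or more were 30.2% of beta-only and 28.4% of paired cells in 564Igi, and 30.9% and 30.0% in WT. A net charge of 1 or more, arginine and lysine minus aspartate and glutamate, was found in 10.8% and 9.52% in 564Igi, and 9.99% and 9.56% in WT. The intervals of these differences, -1.50 to 5.08 points and -0.902 to 3.55 points in 564Igi, and -2.89 to 4.87 points and -2.00 to 3.08 points in WT, included 0. The beta chain recurred in another T cell of the mouse for 2.19% of beta-only and 1.80% of paired cells in 564Igi, and 3.33% and 2.62% in WT. It was found in the other mouse for 2 of 1004 beta-only cells in 564Igi and 0 of 751 in WT, against 8 of 3162 and 9 of 2217 paired cells.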

How the data were processed

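Contig tables of 4 V(D)J libraries were used, from 2 mice. Each deposited table lists contigs with read and UMI counts, raw whole numbers per the file headers, with contig length, cell call, confidence flag, gene names, productivity and CDR3. Cell Ranger 3.0.2 and mm10 are named in the submitters' processing notes, with no step given. The sources used here do not give how the authors set cell calls and flags. The UMI minimum decides which productive alpha chains pass.

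Barcodes called in both tables were left out, and no doublet caller was run. The primary chain was the contig with most UMIs. TRBV, TRBJ, TRAV and TRAJ genes were compared where at least 20 cells used them over both kinds of cell in a mouse. Named genes were those whose interval of the difference excluded 0, up to 5 each way, the list members, the 5 most frequent TRAV and TRAJ genes of single-UMI alphas and up to 5 groups of 2 or more beta-only cells with 1 beta chain per mouse. Thinning used the exact expected value of the draw. Gene usage and thinning steps were tested on simulated data. Members, lists and rules were chosen with earlier results of these data known. Coordinates are those of germline segments in RefSeq's GRCm38.p6 annotation (mm10). Computations ran in Python 3.11.15 with SciPy 1.17.1, NumPy 2.4.6 and pandas 2.3.3, and figures were drawn with matplotlib 3.10.9.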

Additional observations from a re-analysis of the deposited data

Results flagged for a closer look

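Productive contigs that join a delta V gene to TRAJ and TRAC are outside the alpha label of the tables. The rule therefore places a cell with no other alpha-type chain among the beta-only cells. They were present in 1.99% of 564Igi and 2.26% of WT beta-only cells, against 0.221% and 0.316% of paired cells.

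Differences between beta-only and paired cells were set against each other between the mice for 36 measures, and 2 had an interval of the 564Igi minus WT difference that excluded 0, counting error only. For TRBV12-1 the difference was 1.26 points in 564Igi (5.88% of beta-only and 4.62% of paired cells) and -1.31 points in WT (2.80% and 4.10%), 2.57 points apart (0.282 to 4.83). Within each mouse the TRBV12-1 interval included 0, at -0.325 to 3.04 points in 564Igi and -2.70 to 0.338 points in WT. For any immunoglobulin contig in the B cell table the differences were -7.17 points in 564Igi and -0.901 points in WT, -6.27 points apart (-10.9 to -1.69). Neither was tested against the spread between animals.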

How the results depend on the processing

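Of 146 alternative values for shares, medians, counts of genes and CDR3 measures, 124 stayed within the interval or the 1.5-fold range of the reported value and 22 did not. At a minimum of 1 UMI, 15.4% of 564Igi and 16.8% of WT beta-carrying cells had no passing alpha, and 53.9% and 53.0% of them held any TRA contig. In 564Igi 3 TRBV genes and 1 TRBJ gene then had intervals that excluded 0. At 5 UMIs, 60.9% and 62.3% had no passing alpha, 89.1% and 88.5% of them held a TRA contig, and their median beta UMIs were 11 and 11. The counts of TRBV genes were then 2 in 564Igi and 0 in WT, and of TRBJ genes 1 and 1. Without barcodes that held an Ig contig of at least 2 UMIs, 25.8% of 564Igi cells had no passing alpha and 1 TRBJ gene was counted. Thinning to 5 UMIs gave 63.0% and 64.6%, and to 10 UMIs 30.9% and 33.2%. The minimum and the thinning set these shares by construction, and the cause of the gene counts was not tested. Counting delta V to TRAJ contigs as alpha, an alternative chosen after seeing the data, moved no share outside its interval. The WT TRBV14 difference was 0.101 points at 5 UMIs. The count of WT TRBV genes was 2 with barcodes called in both tables kept, with distinct chains and with a gene minimum of 50 cells. Not requiring the high-confidence flag changed none of the recomputed values. No difference whose interval excluded 0 changed sign, but differences whose interval included 0 did. The share with no passing alpha in 564Igi minus WT was 0.407 points without Ig-contig barcodes, and CDR3s of 15 or more amino acids in WT differed by -0.896 points at 1 UMI. At 5 UMIs net charge differed by -0.798 points in 564Igi and -1.32 in WT, TRBJ2 by 2.69 and 0.660, and TRBV23 in 564Igi by -0.110. TRBV13-3 in 564Igi differed by -0.325 points with exactly 1 beta and -0.210 without Ig-contig barcodes. With 1 mouse per genotype, no replicate could be left out. No paired analysis was possible because each genotype has 1 mouse and no test was run.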
